A study of Mus musculus with 13 samples.

Results

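Clone 5 is 1 of 4 mouse induced pluripotent stem (iPS) cell clones whose RNA was profiled on expression arrays, and it was set against the other 3 clones. Its members are the 2 arrays titled with that clone number, out of 13 arrays in all, and the other side is the 6 arrays of clones 1, 2 and 6, each clone weighted equally. The values are log2 signal per transcript row, and the comparison covers the 14408 rows that carry 1 gene symbol on an autosome, out of 16661 rows tested. Also used here are 2 arrays of the fibroblasts (MEF), 2 of MPSVII embryonic stem (ES) cells and 1 of B6 Blu ES cells. Each clone came from a picked colony of embryonic fibroblasts that a lentivirus carrying OSK (Oct4, Sox2 and Klf4) had transduced, and was expanded on a layer of MEF feeder cells. The titles name cells of the MPSVII model, in which lysosomes store sugar polymers because beta-glucuronidase is lacking, whereas the source field of the clones and of the MEF gives wildtype B6 embryos. The strain field reads C57Bl/6 for the clones, the MEF and the MPSVII ES cells, and C57BL/6NTac for B6 Blu ES. Clone 5 is thus a single clone, and no label says whether its 2 arrays came from separate cultures, so the p-values measure the spread between arrays of a line, which may be technical.

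Reprogramming returns a body cell to a state like that of an ES cell, in which Oct4, Sox2 and Nanog hold each other active and leukaemia inhibitory factor (LIF), acting through STAT3, supports self-renewal. Clones made side by side can differ in the sites where the virus inserted, in imprinted genes, whose activity depends on the parent of origin, and in changes picked up in culture.

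The marker genes of the labelled cell type were present in clone 5. The mean signal over 10 markers of pluripotent cells was 8.28 and 7.97 on its arrays, within the 7.39 to 8.43 of the other clones and above the 3.61 and 3.68 of the MEF. Over 11 fibroblast markers, the means of 4.86 and 4.60 lay within the other clones' 4.52 to 5.36, and below the MEF at 8.58 and 8.07. Over 7 macrophage markers, included because the MEF carried them, the means were 3.83 and 3.64 in clone 5, 3.59 to 4.06 in the other clones and 8.77 and 8.04 in the MEF. By limma, the linear model used throughout, 0 of 46 markers differed between clone 5 and the other clones at an adjusted p under 0.05. Among them were 18 of primitive endoderm, trophoblast, neural ectoderm and mesoderm. An unadjusted limma p under 0.05 was met by 6 of the 46, of which 4 were among the 10 pluripotent markers. The other 2 were fibroblast markers, and 0 of the 18 met it. Of all 14408 rows, 1555 met it. In whole cultures, fewer cells of a type and less RNA per cell cannot be told apart.

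The arrays of clone 5 correlated with each other across rows with r = 0.975, and with those of clone 1 with r between 0.964 and 0.978. Correlations with clone 6 were 0.957 to 0.966, with clone 2 0.942 to 0.947 and with MPSVII ES 0.953 to 0.965. Rows are not independent replicates, so r describes the likeness of profiles alone. Clone 1 was therefore as close to clone 5 on this measure as the arrays of clone 5 were to each other, and clone 2 stood farthest away. The arrays of clone 2 also had the narrowest spread of signal among the clones, with interquartile ranges of 1.88 and 1.70 against 1.96 to 2.39 on the other 6 clone arrays, of which clone 5 gave 2.17 and 1.96.

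Clone 5 had lower signal than the other clones at 31 genes and higher signal at 18. The genes that fell include Tefm, which mitochondria need to transcribe their genome, several RNA processing factors, 6 zinc finger genes, the cytokine inhibitor Socs2 and the kinetochore gene Mis12. The genes that rose include the heat shock gene Hspa1a, the keratin gene Krt18 and the imprinted RNA H19. Promoter sequences are shown for a pair of stress-response genes among the increases whose control elements are well known, Hspa1a and Txnip. High Txnip was not particular to clone 5: clone 1 gave 9.55 and 9.81, against 9.47 and 9.00 in clone 5. Each line gives the 250 bases before the RefSeq start of the gene, 5′ to 3′ on the gene's own strand, in assembly GRCm38.p6. The Hspa1a promoter lies at chr17:34972157-34972406 on the minus strand, and its capitals mark the match to GAANNTTC, a minimal form of the heat shock element, at positions -104 to -97 from the start. The Txnip promoter lies at chr3:96557707-96557956 on the plus strand, and its capitals mark the paired CACGAG boxes of the carbohydrate response element, at -85 to -69.
Hspa1a: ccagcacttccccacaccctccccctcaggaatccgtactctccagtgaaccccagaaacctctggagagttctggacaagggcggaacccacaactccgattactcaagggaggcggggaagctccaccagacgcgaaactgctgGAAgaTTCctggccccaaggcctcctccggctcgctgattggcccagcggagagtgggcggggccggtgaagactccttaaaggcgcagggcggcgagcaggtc
Txnip: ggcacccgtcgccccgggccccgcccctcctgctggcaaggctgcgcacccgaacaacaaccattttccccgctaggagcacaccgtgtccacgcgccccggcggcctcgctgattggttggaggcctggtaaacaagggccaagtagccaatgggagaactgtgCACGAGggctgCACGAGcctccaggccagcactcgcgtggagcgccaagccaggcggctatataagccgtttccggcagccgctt
GAANNTTC reads the same on both strands, and 2199 of the 32851 promoters of this length in the RefSeq table (6.69%) hold it. The motif CACGAGNNNNNCACGAG, searched on both strands with its letters taken from the Txnip element itself, is held by 1 of the 32851 (0.00304%). A match describes letters in a window and says nothing about which protein bound there in these cells.

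At a Benjamini-Hochberg adjusted p under 0.05 in limma, 49 of the 14408 rows were called, which is 0.34% of them. The 18 increases make up 0.125% of the rows and the 31 decreases 0.215%. All 49 are named here, and those outside the rule given with the processing were chosen after their values were seen. The increases ranged from 0.80 to 2.66 log2 units, the decreases from -2.02 to -0.94, and the adjusted p-values from 0.00237 to 0.0495. The clone 5 arrays lay outside the range of the 6 other arrays for 14 of the 18 increases and 30 of the 31 decreases. Among all rows this was so for 1185, or 8.22%, with 669 (4.64%) above the range and 516 (3.58%) below it. The number of calls rested strongly on single arrays. Without clone 5 replicate 2, 0 rows were called by limma, although 1172 had an unadjusted p under 0.05, and without clone 5 replicate 1 there were 8 calls. The count was 19 and 16 without replicates 1 and 2 of clone 1, 25 and 62 without those of clone 2, 19 and 21 without those of clone 6, and 23 without either MPSVII ES array. The 13 genes that lost their call at most when a clone 5 array was left out were Tefm, Olfr692, Rnd3, Hspa1a, Zfp770, Pdcd10, Edf1, Krt18, Cdc7, Ccng2, Ddit4l, Rbbp6 and Sgms1. The remaining 36 lost it in 3 to 12 of the 12 fits that each left out 1 array.

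After a normalization that removes differences between arrays that depend on signal (loess), 294 rows were called, or 2.04%, and they included all 49. Of these, 99 were higher in clone 5 (0.687%) and 195 lower (1.35%). Centring each array on its median gave 163 calls, 78 higher and 85 lower, a more even split than the 18 and 31 of the deposited values. The balance of directions also depended on which clones formed the other side: with clone 1 left out 250 rows were higher and 128 lower, with clone 2 left out 7 and 47, and with clone 6 left out 7 and 6. The signal dependence itself was small and unequal between the arrays of clone 5. The rows were divided into 5 equal groups by mean signal. In the brightest group, with mean signal of 5.62 to 13.1, the median difference from the other clones was 0.26 for replicate 1 and -0.062 for replicate 2. Their joint median there was 0.099 before and 0.022 after the normalization, and in the other 4 groups it lay between -0.0033 and 0.039 before it. Of the 49 calls, 31 fell in the brightest group and 14 in the next. The dim ones, with a mean signal under 4, were Ric1, Olfr1298, Ifna11 and Pla2g4c.

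**Figure D1:**
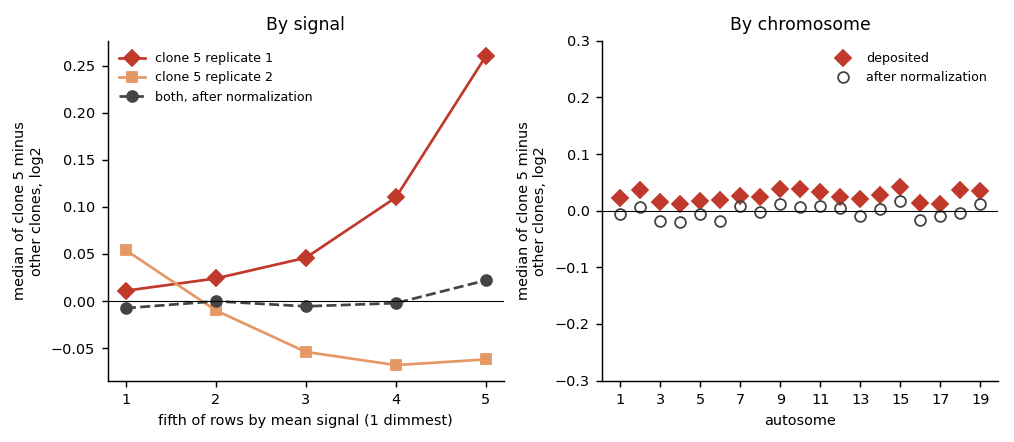
Left, the median log2 difference of clone 5 from the other clones in each of 5 equal groups of rows by mean signal, for each clone 5 array as deposited and for both together after the intensity-dependent normalization. Right, the same median per autosome, which stays between 0.011 and 0.042 as deposited and between -0.02 and 0.017 after normalization.

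No autosome stood apart as a whole. Median differences per chromosome, over 362 to 1290 rows each, lay between 0.011 on chromosomes 4 and 17 and 0.042 on chromosome 15, against 0.03 over all rows. After normalization they lay between -0.02 and 0.017. On single clone 5 arrays, the chromosome medians departed from the median of the array by -0.034 to 0.02, and on the arrays of the other clones by -0.06 to 0.03. Calls fell on 17 of the 19 autosomes, with 0 on chromosomes 1 and 18 in limma, where 88 and 53 rows had an unadjusted p under 0.05 and 15 and 8 were called after normalization. Chromosome 2 held 7 of the calls, the increases Edf1, Fnbp4 and Olfr1298 and the decreases Rnd3, Zfp770, Kin and Slx4ip, among the 1290 rows that made it the autosome with most rows.

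The decreases were led by genes of several cell functions rather than by members of a single family. Rnd3, an atypical small GTPase that acts on the actin cytoskeleton, had the largest decrease. It gave 6.02 and 5.46 on the clone 5 arrays, against 6.80 and 7.29 in clone 1, 8.15 and 7.79 in clone 2 and 8.16 and 8.38 in clone 6. Both clone 5 arrays lay below all 6 others, and the log2 difference was -2.02 ± 0.20 (SE; limma adjusted p = 0.00553), a signal 4.05-fold lower. In MPSVII ES Rnd3 gave 6.91 and 6.95 and in the MEF 9.20 and 9.10. Pdcd10, an adaptor of signalling complexes whose human counterpart is mutated in a familial vascular malformation of the brain, gave 5.14 and 5.22 in clone 5. The other clones had 6.40 and 6.81, 7.48 and 6.71, and 7.32 and 7.31 in the order 1, 2 and 6. All 6 were above clone 5, with a difference of -1.83 ± 0.22 (limma adjusted p = 0.0123). Without clone 5 replicate 2, Rnd3 and Pdcd10 were not called, like every other row.

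Genes of mitochondrial gene expression and DNA maintenance were among the decreases. Tefm, the elongation factor of mitochondrial transcription, had 4.83 and 4.50 in clone 5, 6.19 and 6.33 in clone 1, 6.00 and 6.06 in clone 2 and 7.20 and 7.55 in clone 6. No other array of the series came near the clone 5 level: MPSVII ES had 7.14 and 7.12, the MEF 6.49 and 6.36 and B6 Blu ES 6.51. The difference from the other clones was -1.89 ± 0.16 (limma adjusted p = 0.00237), a signal 3.71-fold lower, and -1.97 after normalization. Ssbp1, the single-stranded DNA-binding protein of mitochondria, was at 6.79 and 6.36 in clone 5, and the lowest of the other clone arrays was at 7.35 (-1.26 ± 0.21, limma adjusted p = 0.0356). Trmt5, a methyltransferase that modifies tRNAs including mitochondrial ones, was at 4.95 and 4.87. The clone 2 arrays came close to that, at 5.75 and 5.08, while clones 1 and 6 had 6.53 to 7.10 (-1.46 ± 0.25, limma adjusted p = 0.0447). Wider families of mitochondrial gene expression had few calls or none. Of 69 mitochondrial ribosomal protein rows 0 were called by limma and 8 had an unadjusted p under 0.05, with a median of 0.04 beside 0.03 for all rows, and Mrpl41 and Mrpl51 alone were called lower after normalization. Among 17 mitochondrial aminoacyl-tRNA synthetases, which load tRNAs, 0 were called by limma (1 at an unadjusted p under 0.05), and Rars2 was called lower after normalization (-0.68, limma adjusted p = 0.0472). The 4 FAST kinase rows, RNA-binding proteins of mitochondria, had 0 calls in limma (2 at an unadjusted p under 0.05) and a median of -0.74. Of the 4, 2 lay below the range of the other clones and 1 above it, beside 3.58% and 4.64% of all rows. After normalization Fastkd2 (-1.18, limma adjusted p = 0.0178) and Fastkd3 (-1.36, limma adjusted p = 0.00777) were called. Of all 14408 rows, 1555 had an unadjusted limma p under 0.05, and 1.35% were called lower after normalization. These families were chosen after the values were seen and have no test of their own. Among the 32 oxidative phosphorylation genes measured, 0 were called by limma before or after normalization, with 1 and 2 at an unadjusted p under 0.05 and a median of 0.09.

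Other decreases were in genes for factors of transcription and RNA processing, a grouping made after the calls were seen. Gtf2b, which encodes the general initiation factor TFIIB, gave 6.59 and 6.11 in clone 5 and 7.05 to 8.09 in the other clones (-1.45 ± 0.25, limma adjusted p = 0.0456). Its 7.05 was clone 2 replicate 2, away from the other 5 arrays at 7.77 or above. Ints6, a subunit of the Integrator complex that ends transcription of many RNAs, had 5.03 and 4.76 in clone 5, 5.37 to 5.91 in clones 1 and 2 and 7.10 and 7.54 in clone 6. The difference was -1.31 ± 0.20, and it came mainly from clone 6: without that clone it was -0.76 (limma adjusted p = 0.208). Rbbp6, part of the machinery that forms the 3′ ends of mRNAs, showed the same order, with 5.04 and 4.96 in clone 5, 5.70 and 5.72 in clone 1, 5.90 and 6.09 in clone 2 and 7.21 and 7.26 in clone 6 (-1.32 ± 0.16, limma adjusted p = 0.0117; -0.85 and 0.0892 without clone 6). Pcf11, which couples 3′ end cleavage to termination, had 4.86 and 4.61 against 5.22 to 6.59 (-1.09 ± 0.17). Srsf3, a serine-arginine-rich splicing factor, was bright throughout, with 8.75 and 8.49 in clone 5 and 9.22 to 10.08 in the others (-0.94 ± 0.15, limma adjusted p = 0.0329). Pspc1, a protein of the nuclear bodies called paraspeckles, had 7.30 and 6.94 against 7.52 to 8.86 (-1.01 ± 0.15). Gemin6, of the complex that assembles splicing ribonucleoproteins, had 6.78 and 6.39 against 7.41 to 8.09 (-1.21 ± 0.21). Without clone 6, Pcf11, Srsf3 and Pspc1 differed by -0.73, -0.70 and -0.69 (limma adjusted p = 0.158, 0.14 and 0.15). Gtf2b and Gemin6 then differed by -1.36 and -1.29 and were not called either (limma adjusted p = 0.0874 and 0.0681). Dimt1, a methyltransferase of small-subunit ribosomal RNA, had 4.07 and 3.52 against 4.45 to 5.59. Dimt1 was lower than in clone 1 by a tested difference (-1.75, limma adjusted p = 0.0376), as well as lower than in the 3 clones together (-1.19 ± 0.17, limma adjusted p = 0.0229). It stayed called without clone 6 (-1.21, limma adjusted p = 0.0365).

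**Figure D2:**
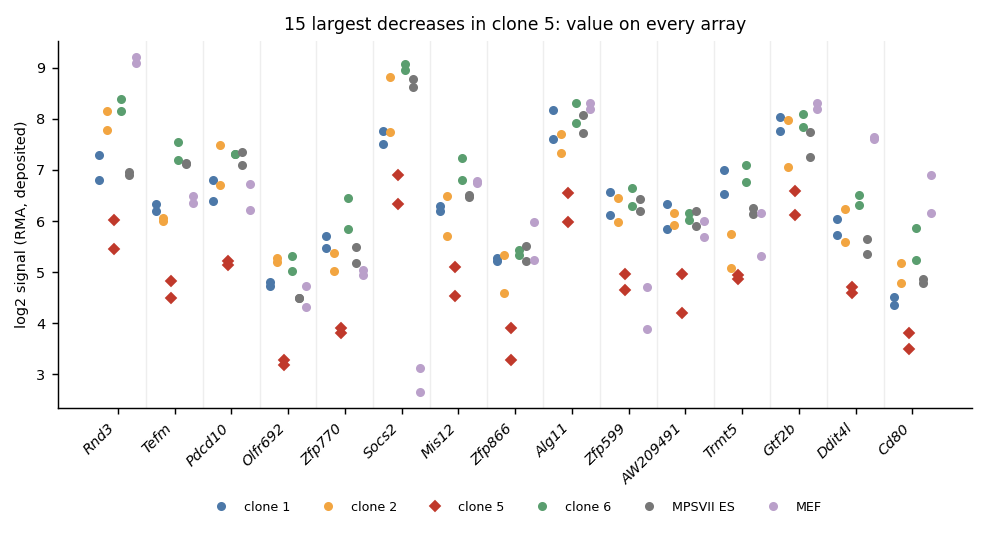
Log2 signal of the 15 genes with the largest decreases in clone 5, 1 point per array, with clone 5 as red diamonds. For each gene both clone 5 points lie below all points of clones 1, 2 and 6, while the MEF point can lie lower, as for Socs2 at 2.66 and 3.12.

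Zinc finger genes made up 6 of the 31 decreases and 0 of the 18 increases. Zfp770 was the clearest: it gave 3.80 and 3.90 in clone 5, 5.71 and 5.48 in clone 1, 5.37 and 5.03 in clone 2, 5.85 and 6.45 in clone 6, and 5.50 and 5.17 in MPSVII ES. The groups did not overlap, and the difference was -1.80 ± 0.19 (limma adjusted p = 0.00836). Zfp866 had 3.90 and 3.29 in clone 5 and 4.60 to 5.44 in the others (-1.60 ± 0.26, limma adjusted p = 0.0329). Zfp599 had 4.96 and 4.65 against 5.99 to 6.64 (-1.54 ± 0.25, limma adjusted p = 0.0318), and the MEF, at 4.70 and 3.88, were as low as clone 5. Zfp644 (-1.05), Zfp958 (-1.03) and Zfp62 (-1.30) were also called. Zfp62 was the only decrease whose arrays overlapped: 4.70 on clone 5 replicate 1 met 4.69 on clone 2 replicate 1. Rows whose symbol begins with Zfp and a number, a family looked up after the values were seen, were 197 of the 14408. The 6 decreases among these 197 stand beside 0.215% called lower among all rows. Of the 197, 25 lay below the range of the other clones and 2 above it, beside 3.58% and 4.64% of all rows. The median of the Zfp rows was -0.11 against 0.03 for all rows. On single arrays, the median of these rows against the mean of the 8 clone arrays was -0.04 and -0.16 in clone 5, -0.03 and -0.20 in clone 2, 0.02 and 0.11 in clone 1 and 0.06 and 0.25 in clone 6. Clone 5 and clone 2 overlapped in this median. After normalization 17 of the 197 were called lower and 0 higher, with a median of -0.13, beside 1.35% and 0.687% of all rows called lower and higher.

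Several decreases act in signalling. Socs2, which dampens cytokine receptors and is itself induced through STAT proteins, had 6.90 and 6.33 in clone 5, 7.77 and 7.51 in clone 1, 8.82 and 7.75 in clone 2, 8.95 and 9.07 in clone 6 and 8.78 and 8.62 in MPSVII ES. Clone 5 was lowest and clone 1 next, and the MEF, at 2.66 and 3.12, were far below both. The difference was -1.70 ± 0.27 (limma adjusted p = 0.0318). Other members of the LIF and STAT3 list did not pass the test as deposited: Stat3 differed by 0.35, the receptor gene Lifr by -0.07, and Socs3, another cytokine inhibitor, by -0.15. Il6st, which encodes the receptor subunit shared by LIF and interleukin-6, differed by -0.83 (limma adjusted p = 0.23) and was called after normalization (-0.90, limma adjusted p = 0.0312), although its arrays overlapped (5.32 and 4.99 against 4.81 to 6.83). Ddit4l, an inhibitor of mTOR signalling, had 4.59 and 4.71 against 5.59 to 6.51 (-1.42 ± 0.19, limma adjusted p = 0.0188). Cd80, a co-stimulatory ligand of T cells, had 3.80 and 3.50 against 4.35 to 5.87 (-1.34 ± 0.24). The lipid enzymes Sgms1, which makes sphingomyelin, and Pla2g4c, a phospholipase, differed by -1.10 and -1.11. Sgms1 had nearly equal arrays in clone 5, 4.82 and 4.81, below the 5.39 to 6.36 of the others, whereas the dim Pla2g4c was as low in clone 1 (2.73 and 2.81) as in clone 5 (2.49 and 2.67).

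The remaining decreases have roles in division, glycosylation and genome upkeep. Mis12, a kinetochore protein that links centromeres to the spindle, had 5.10 and 4.54 in clone 5 and 5.70 to 7.23 in the other clones (-1.63 ± 0.23, limma adjusted p = 0.0229). Alg11, a mannosyltransferase of the precursor for N-linked glycans, had 6.55 and 5.98 against 7.34 to 8.30 (-1.58 ± 0.23, limma adjusted p = 0.0242). Its levels in MPSVII ES, 7.73 and 8.08, and in the MEF, 8.30 and 8.19, lay within that range. Kin, a DNA- and RNA-binding protein, Topors, a ubiquitin and SUMO ligase, and Slx4ip, a partner of a DNA repair scaffold, differed by -1.27, -1.07 and -1.05. Each was farthest from clone 6. Without that clone the differences were -1.03, -0.79 and -0.73 (limma adjusted p = 0.14, 0.124 and 0.156). Olfr692, an olfactory receptor gene, gave 3.19 and 3.29 in clone 5, 4.73 and 4.80 in clone 1, 5.19 and 5.28 in clone 2 and 5.32 and 5.02 in clone 6. The groups did not overlap, and the difference was -1.82 ± 0.16 (limma adjusted p = 0.00237). Among all 707 olfactory receptor rows, 1 was called lower and 1 higher, Olfr1298, and probes of near-identical receptor genes can share signal. AW209491, for which the annotation gives no role, had 4.97 and 4.21 against 5.84 to 6.34 (-1.48 ± 0.23).

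Among the increases, Hspa1a, which encodes an inducible chaperone of the heat shock response, had the largest gap to the nearest other clone. It gave 7.04 and 7.75 in clone 5, 4.75 and 5.24 in clone 1, 4.66 and 4.24 in clone 2, 4.47 and 5.15 in clone 6, and 4.82 and 4.94 in MPSVII ES. The lowest clone 5 array was well above the highest array of the other clones, and the MEF arrays, at 6.18 and 7.30, were the only others near it. The difference was 2.64 ± 0.32 (limma adjusted p = 0.0117), a signal 6.24-fold higher, and 2.51 from MPSVII ES (limma adjusted p = 0.0152), a comparison that shares the clone 5 arrays. Without clone 5 replicate 2 it was not called, as no row was. Hspa1a has a near-identical copy, Hspa1b, without a row of its own here, so signal of either gene may be counted in this row. Other heat shock genes of the list did not pass the test. Hsph1 differed by -0.32, the co-chaperone gene Dnajb1 by -0.25, Hsp90aa1 by 0.37, the co-chaperone gene Bag3 by 0.31 and Hspa5, the chaperone of the endoplasmic reticulum, by 0.30, and all of these overlapped the other clones. Dnaja1, a co-chaperone of the same family as Dnajb1, had 5.20 and 3.86 in clone 5, below the 5.66 to 6.80 of the others. That difference, -1.85, did not pass the test (limma adjusted p = 0.0888), and after normalization it was -1.92 and did (limma adjusted p = 0.0439). In the list of ATF4, unfolded protein and heat shock genes, 2 of 38 were called, beside 0.34% of all rows. The called genes were Hspa1a and Txnip, and the median of the list was 0.01. Txnip was brighter on both clone 1 arrays than in clone 5, and without clone 2 its difference was 0.60 (limma adjusted p = 0.432).

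Krt18, a keratin of simple epithelia that early embryonic cells also make, rose by 2.22 ± 0.29 (limma adjusted p = 0.0163). It had 8.31 and 8.02 in clone 5, 6.81 and 7.03 in clone 1, 5.33 and 4.44 in clone 2, 6.22 and 5.87 in clone 6 and 6.31 and 6.37 in MPSVII ES. Clone 5 was above every other array of the series, of which B6 Blu ES came nearest at 7.40, and clone 1 was the nearest clone. Among 28 epithelial adhesion genes Krt18 was the only call, and the list's median was 0.22 beside 0.03 for all rows. The E-cadherin gene Cdh1, with 7.18 and 6.87 against 5.08 to 6.68, differed by 1.03 (limma adjusted p = 0.0949) and was called after normalization (0.96, limma adjusted p = 0.0312), as was the tight junction gene Cldn4 (0.60, limma adjusted p = 0.0319). Of 12 trophoblast genes Krt18 was again the only call, and their median was -0.03.

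H19, a non-coding RNA expressed from the maternal copy of an imprinted region on chromosome 7, had 6.96 and 6.54 in clone 5. Clone 1 had 4.80 and 5.49, clone 2 4.97 and 4.47, clone 6 5.30 and 5.67, MPSVII ES 6.15 and 5.68, B6 Blu ES 6.61 and the MEF 9.55 on both arrays. Clone 5 was above the other clones and nearer to the ES lines. Its difference from the other clones was 1.64 ± 0.24 (limma adjusted p = 0.0242; not called without clone 5 replicate 2), and that from MPSVII ES 0.84 (limma adjusted p = 0.209). Because H19 was bright in the MEF, and feeder cells are MEF, the fibroblast markers stand beside it. Of 11, 0 were called and 1 lay above the range of the other clones, beside 4.64% of all rows. Their mean level in clone 5 (4.86 and 4.60) was within that of the other clones (4.52 to 5.36). The part of feeder cells in the H19 signal was not tested further. H19 was the only call among 47 imprinted genes, whose median was 0.03. Igf2, the paternally expressed growth factor of the same region, differed by 0.35 (limma adjusted p = 0.667), Peg3 by 0.62, Igf2r by 0.31 and Cdkn1c by 0.21. Silencing in the Dlk1 to Dio3 region on chromosome 12 has been used to grade mouse iPS clones. There Dlk1 differed by 0.05, Rtl1 by -0.11 and Dio3 by 0.19, all with overlapping arrays, and Rtl1 and Dio3 were dim. Meg3, Rian and Mirg of that region had no row in this comparison, so its silencing was not tested. After normalization, Nap1l4 (0.58, limma adjusted p = 0.036) and Jade1 (-1.30, limma adjusted p = 0.00719) of this list were also called.

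**Figure D3:**
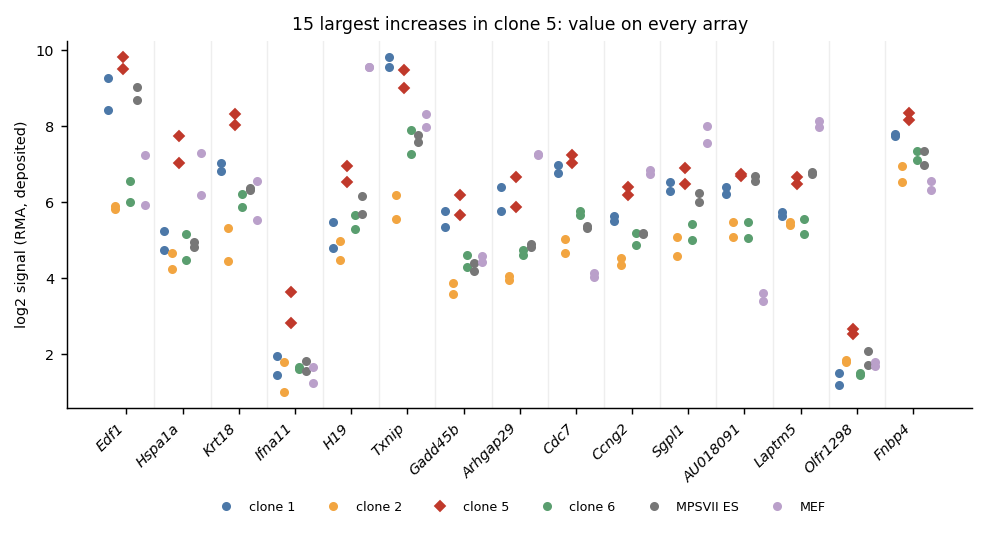
Log2 signal of the 15 genes with the largest increases in clone 5, 1 point per array, with clone 5 as red diamonds. Hspa1a, Krt18 and H19 in clone 5 lie above all other clones, whereas for Txnip the clone 1 points, at 9.55 and 9.81, lie above clone 5, and Edf1 is high in clones 1 and 5 and in MPSVII ES.

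Several increases were shared in part with clone 1. Edf1, a transcriptional coactivator that also acts at stalled ribosomes, had the largest difference, 2.66 ± 0.33 (limma adjusted p = 0.0131). Its arrays fell into a bright and a dim set: 9.81 and 9.50 in clone 5, 9.27 and 8.43 in clone 1 and 9.02 and 8.68 in MPSVII ES, but 5.91 and 5.81 in clone 2, 6.00 and 6.55 in clone 6, 7.25 and 5.93 in the MEF and 5.41 in B6 Blu ES. Clone 5 differed from clone 1 by 0.80 (limma adjusted p = 0.667). Txnip, which binds thioredoxin and limits glucose uptake, had 9.47 and 9.00 in clone 5 and 9.55 and 9.81 in clone 1, with 6.20 and 5.55 in clone 2 and 7.26 and 7.91 in clone 6. The call (1.52 ± 0.24, limma adjusted p = 0.0318) therefore set clones 2 and 6 below clone 5, with clone 1 above it, and without clone 2 the difference was 0.60 (limma adjusted p = 0.432). Gadd45b, a stress-induced regulator of growth arrest, had 6.19 and 5.66 in clone 5 and overlapped clone 1 at 5.36 and 5.76, above clones 2 and 6 at 3.59 to 4.62 (1.34 ± 0.20, limma adjusted p = 0.0242). It was the only call among 25 p53 and senescence genes, where Cdkn1a differed by -0.21 and Mdm2 by -0.05.

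The other increases followed the same order of clones for the most part. Cdc7, the kinase that fires replication origins, had 7.23 and 7.03 in clone 5, 6.76 and 6.99 in clone 1, 5.03 and 4.67 in clone 2 and 5.78 and 5.66 in clone 6 (1.31 ± 0.16, limma adjusted p = 0.0117). Ccng2, a cyclin linked to withdrawal from the cell cycle, had 6.39 and 6.18 in clone 5 and 4.34 to 5.63 in the others, highest in clone 1 (1.28 ± 0.15, limma adjusted p = 0.0117). Arhgap29, a GTPase-activating protein, differed by 1.34 and Sgpl1, which degrades sphingosine-1-phosphate, by 1.19, and both overlapped clone 1. Laptm5, a lysosomal membrane protein of blood cells, had 6.65 and 6.49 in clone 5 and 5.17 to 5.74 in the other clones (1.08 ± 0.15, limma adjusted p = 0.0238). MPSVII ES, at 6.79 and 6.73, lay just above clone 5, and the MEF were brighter at 8.14 and 7.99. The mean of the 7 macrophage markers in clone 5, 3.83 and 3.64, lay within the range of the other clones, and the part of other cells in the Laptm5 signal was not tested further. AU018091 (1.10), the formin-binding gene Fnbp4 (1.01), the adaptor gene Cd2ap (0.85) and Khdc4 (0.80), an RNA-binding protein of splicing, were called with smaller differences. The dim Ifna11, a type I interferon, rose by 1.65 from 1.01 to 1.95 in the other clones to 3.64 and 2.82, Olfr1298 by 1.04 and Ric1, a regulator of membrane traffic, by 0.98.

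Each of the other clones was then compared with clone 5 on its own. Clone 5 differed from clone 1 at 3 rows (0.0208%), from clone 2 at 844 (5.86%) and from clone 6 at 195 (1.35%). After normalization these counts were 7 (0.0486%), 685 (4.75%) and 478 (3.32%). The 18 increases had a median difference of 0.54 from clone 1, 1.86 from clone 2 and 1.43 from clone 6, and clone 1 was the nearest clone for 16 of them. For the 31 decreases the medians were -1.23, -1.16 and -1.77, and the nearest clone was clone 2 for 18, clone 1 for 12 and clone 6 for 1. In the limma fit 0 of the 18 increases were called against clone 1 alone, 18 against clone 2 and 15 against clone 6, and of the 31 decreases 3, 18 and 30. An unadjusted limma p under 0.05 against clone 1 was met by 9 of the increases and 30 of the decreases. The gap between clone 5 and the nearest other clone mean exceeded the whole range of the 3 other clone means for 5 of the 18 increases (Hspa1a, Ifna11, H19, Laptm5 and Olfr1298) and 15 of the 31 decreases. Among all rows this was so for 1492, or 10.4%. Those 15 were Rnd3, Tefm, Pdcd10, Olfr692, Zfp770, Mis12, Zfp866, Alg11, Zfp599, AW209491, Gtf2b, Ddit4l, Kin, Ssbp1 and Gemin6.

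**Figure D4:**
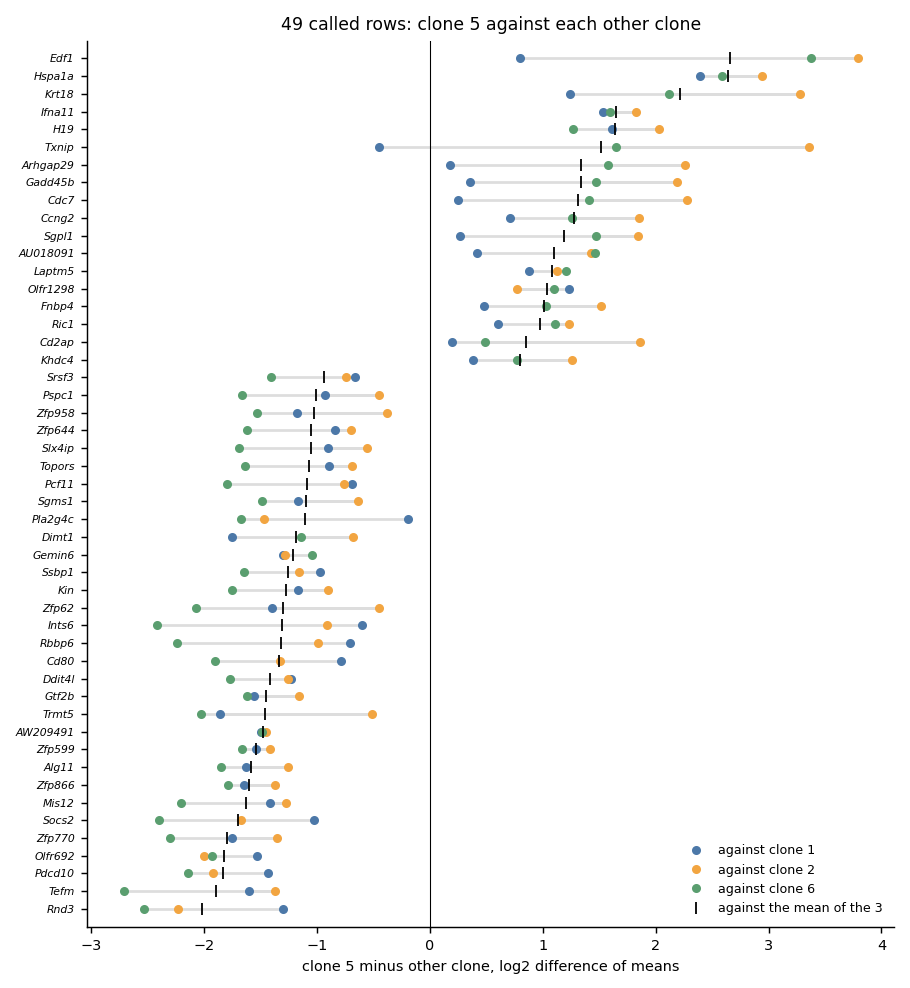
Log2 difference of the clone 5 mean from the mean of each other clone, for the 49 called rows, with a black tick at the difference from the 3 clones together. Most increases lie nearest to clone 1 (blue), most decreases nearest to clone 1 or 2, and Txnip alone has points on both sides of 0, with -0.45 against clone 1.

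Rows called against each of clones 1, 2 and 6 in the same direction numbered 2 (0.0139%), Tefm and Olfr692, both lower. Tefm differed by -1.60 from clone 1 (limma adjusted p = 0.0383), -1.37 from clone 2 (0.00463) and -2.71 from clone 6 (0.000677), and Olfr692 by -1.53 from clone 1 and -1.93 from clone 6, and by slightly more from clone 2. After normalization there were 7 (0.0486%): Tefm, Alg11, Dimt1, Trmt5, Zfp770, H19, the only one that was higher, and Fignl1, an ATPase of DNA repair that had not been called as deposited (6.45 and 6.15 against 6.59 to 7.98; -1.21 after normalization, limma adjusted p = 0.00206). Leaving out 1 array of clones 1, 2 or 5, of the MEF or of MPSVII ES left 0 rows apart from each clone in limma. Leaving out an array of clone 6 gave 2, Tefm and Zfp770. In these 12 fits, 110 to 280 rows had an unadjusted p under 0.05 against each clone in 1 direction. Without clone 2, the difference of clone 5 from clones 1 and 6 kept 28 of the 31 decreases and 6 of the 18 increases as calls. The increases kept were Edf1, Hspa1a, H19, Ccng2, Laptm5 and Olfr1298. Without clone 6, 6 decreases remained called, Tefm, Rnd3, Pdcd10, Olfr692, Zfp770 and Dimt1, and 6 increases, Hspa1a, Krt18, H19, Cdc7, Ccng2 and Cd2ap. Hspa1a, H19, Ccng2, Tefm, Rnd3, Pdcd10, Olfr692, Zfp770 and Dimt1 stayed called both without clone 2 and without clone 6.

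The number of rows by which clone 5 differed can be set beside the other clones, each against the remaining 3. These comparisons share arrays. Clone 1 differed at 83 rows (0.576%), clone 2 at 1708 (11.9%) and clone 6 at 163 (1.13%), against 49 for clone 5. After normalization the counts were 60 for clone 1 (0.416%), 816 for clone 2 (5.66%), 242 for clone 6 (1.68%) and 294 for clone 5, so the order of the clones by this count changed, and the difference between the counts was not tested. Against MPSVII ES, clone 5 differed at 231 rows (1.6%) and the mean of clones 1, 2 and 6 at 91 (0.632%). After normalization the counts were 591 (4.1%) and 260 (1.8%). These counts are not like for like, because differences of single clones even out in a mean over 3 clones. None of clones 1, 2 and 6 was compared with MPSVII ES on its own. Tefm differed from MPSVII ES by -2.47 in clone 5 (limma adjusted p = 0.000432) and by -0.58 in the other clones (0.154). Ints6 differed by -2.16 and -0.84, Socs2 by -2.09 and -0.39, and Pdcd10 by -2.05 and -0.22. Edf1 went the other way, with 0.80 in clone 5 (limma adjusted p = 0.438) and -1.86 in the other clones (0.0405), and Laptm5 likewise, with -0.19 and -1.26.

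Pathway lists of 1045 genes in 30 groups, of which 777 had an autosomal row, gave few calls beyond those already named. Of 30 pluripotency regulators 0 were called by limma before or after normalization, with 9 and 10 at an unadjusted p under 0.05. Of all 14408 rows, 1555 and 2107 met that threshold, a smaller share. The median of the regulators was 0.01, and 1 lay above and 3 below the range of the other clones, beside 4.64% and 3.58% of all rows. Pou5f1, which encodes Oct4, had 8.15 and 7.65 in clone 5 and 6.84 to 7.98 in the other clones (0.52, limma adjusted p = 0.349), and Sox2 had 8.73 and 8.56 against 7.96 to 9.11. Nanog differed by -0.32, Klf4 by -0.40 and Zfp42, a marker of the naive state, by -0.86 (limma adjusted p = 0.0874). Myc had 4.52 and 4.10, below the 4.61 to 5.10 of the other clones, and did not pass the test (-0.52, limma adjusted p = 0.327). Gusb, the gene of the MPSVII enzyme, was dim at 3.47 and 3.48 against 3.62 to 4.25 (-0.35, limma adjusted p = 0.698), and Nnt, which differs between B6 substrains, had 5.43 and 4.98 against 4.42 to 5.61. Of the 51 fibroblast and matrix genes, 42 lysosome genes and 29 Hox genes 0 were called by limma before or after normalization, with 5, 4 and 2 at an unadjusted p under 0.05 as deposited.

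**Figure D5:**
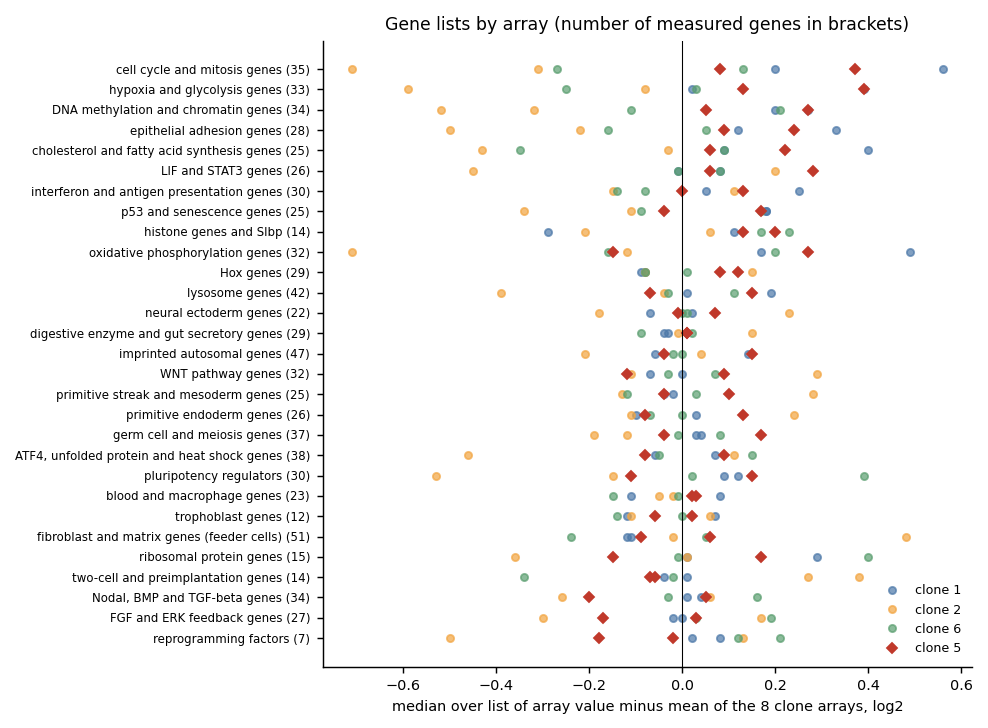
For each gene list with more than 2 measured genes, the median over its genes of the array value minus the mean of the 8 clone arrays, 1 point per clone array, with clone 5 as red diamonds. The clone 5 points lie among those of the other clones in most lists, and in the cell cycle list they lie with clone 1 and above clone 2.

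The lists with the highest medians in clone 5 were cell cycle and mitosis genes (0.31 over 35), hypoxia and glycolysis genes (0.29 over 33), epithelial adhesion genes (0.22 over 28) and DNA methylation and chromatin genes (0.22 over 34), beside 0.03 for all rows. In each of these lists the medians of single clone 5 arrays overlapped those of clone 1, and clone 2 lay below both. For the cell cycle list, against the mean of the 8 clone arrays, they were 0.37 and 0.08 in clone 5 and 0.20 and 0.56 in clone 1. Clone 2 had -0.31 and -0.71 there. As deposited, Krt18 and Txnip were the only calls in these lists. After normalization 2.04% of all rows were called, 0.687% higher and 1.35% lower. The medians of these lists were then 0.26, 0.22, 0.17 and 0.19, and further members were called. In the cell cycle list these were Bub1, a checkpoint kinase (0.76), Nusap1, a spindle protein (0.62), and Mcm4, a subunit of the replicative helicase (0.58). The chromatin list added the de novo DNA methyltransferase Dnmt3b (0.71) and the histone demethylase Kdm4c (0.63). In the hypoxia and glycolysis list Ero1a, an oxidase of the endoplasmic reticulum, was at 1.06 and the collagen hydroxylase P4ha1 at 0.94, while Ldhb, a lactate dehydrogenase, was lower at -0.74. For Bub1, Nusap1, Mcm4 and Kdm4c the highest array of the other clones was above both clone 5 arrays, and for Dnmt3b, Ero1a and P4ha1 it lay between them. Clone 1 held that highest array for Bub1 (9.02), Nusap1 (9.06) and Mcm4 (7.93). Other list members called after normalization were Eif1a (-0.73), Zfp809 (-1.23) and Pramel6 (-0.84) among 14 two-cell and preimplantation genes, the ERK inhibitor Spry2 (-1.16), the ribosomal protein gene Rps18 (-1.34), the interferon-induced GTPase Gbp2 (0.71) and the macrophage gene Cd68 (0.82).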

How the data were processed

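Amplified, biotin-labelled cDNA of 13 RNA samples was measured on Affymetrix exon arrays for mouse, per the labels' protocols. The deposited log2 values were made by the authors with Affymetrix Expression Console and RMA, per the submitters' processing notes, with versions not given in the sources used here; RMA corrects background and makes probe distributions alike, so levels are relative. Of 23238 rows, 6577 without a gene in a range of low row numbers were left out as array controls. Gene names and chromosomes came from RefSeq GRCm38.p6 through the array's annotation, which matched 14884 rows with 1 symbol. No detection calls were used, and with 2 arrays a clone the number of arrays limits precision.

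All 13 arrays entered 1 linear model, with a mean for each line, in limma 3.58.1 (lmFit, eBayes) in R 4.3.3, with 6 residual and 4.53 prior degrees of freedom. P-values were Benjamini-Hochberg adjusted over 16661 rows, with calls under 0.05; B6 Blu ES, with 1 array, was assumed to vary like the other lines. Errors after ± are standard errors. The intensity-dependent normalization was a loess with span 0.3 against the mean of all arrays. The model was tested on simulated data. Genes named by rule were up to 15 called increases and decreases without overlap, rows apart from each clone, up to 4 called members of each list, and the reprogramming, imprinted and disease genes. The comparison, the gene lists and the tests were chosen with earlier results of these data known. Alternatives were other normalizations, leaving out arrays, clones or dim rows, a replicate block, array weights, a trended prior, other row sets and a minimum log2 difference of 1.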

Additional observations from a re-analysis of the deposited data

Results flagged for a closer look

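Among the 6 arrays of clones 1, 2 and 6, 1 array stood far from the other 5 for 2 of the 49 called rows, by Dixon's test at 95%, which flags about 1 in 20 groups by chance. Gtf2b, the gene of an initiation factor, was at 7.05 on clone 2 replicate 2, below 7.77 to 8.09 on the other 5. Zfp866, a zinc finger gene, was at 4.60 on the same array, below 5.21 to 5.44. Both values remained above the clone 5 arrays.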

How the results depend on the processing

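The count of 49 rows moved with most settings, and 0 of the 49 differences turned sign under the alternatives run. It was 321 after quantile normalization, 163 after median centring, 294 after the intensity-dependent one (170 with the clones alone), 151 without dim rows, 378 with clone 1 left out of the other clones and 54 with clone 2 left out. It fell to 11 with the 8 clone arrays alone, to 13 with clone 6 left out and to 16 with control rows included. Leaving out 1 array gave 0 (without clone 5 replicate 2) to 62 (without clone 2 replicate 2). The trended prior gave 40, array weights 49, autosomal rows alone 50 and the minimum difference 45.

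Rows apart from each clone numbered 2, 5 after quantile normalization, 7 after the intensity-dependent one, 6 without dim rows, 3 with array weights, and 0 with that normalization on the clones alone, the 8 clone arrays alone, the replicate block, the trended prior or control rows. Leaving out 1 array gave 0 to 2. Unadjusted p-values under 0.05 against each clone were met by 383, 170, 164, 177 and 131 rows in the settings with 0.

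The largest distance of a chromosome median from that of all rows was 0.017, and 0.0221, 0.0198, 0.0188 and 0.0448 with quantile, intensity-dependent, clones-alone normalization and without dim rows. Replicate numbers did not pair the samples: over 15 pairs of lines, same-numbered arrays correlated with r of -0.24 to 0.26, above 0.1 in 4. With the replicate block 24 rows were called, 23 of them among the 49. The cause of these shifts was not tested.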

Other observations

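Some genes called only after the intensity-dependent normalization are given here. They were chosen after their values were seen and form no list, and genes of like function were also called higher in clone 5, such as the helicase gene Dhx9, which had 9.91 and 9.61 against 8.75 to 9.34 (0.62, limma adjusted p = 0.0312). Among the lower ones, Fastkd3 (-1.36), Mrpl51 (-1.70) and Trmt10c (-1.15), which act on RNA or translation in mitochondria, were below the other clones on average, though Mrpl51 overlapped them. Gen1, which resolves joined DNA strands in recombination, had 4.72 and 4.40 in clone 5 and 4.92 to 6.93 in the other clones (-1.40, limma adjusted p = 0.0135). Mettl6, a tRNA methyltransferase, had 7.11 and 7.03 against 7.59 to 8.65 (-1.19, limma adjusted p = 0.00366). The Mediator genes Med1 (-0.85) and Med6 (-0.80) and the exosome gene Exosc1 (-0.95) were also lower.

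The largest increase called only after that normalization was H2bu2, a histone gene, at 2.27 (limma adjusted p = 0.0472). It had 5.86 and 5.59 in clone 5 and 5.82 and 4.49 in clone 1, but 1.96 to 3.18 in clones 2 and 6. Emb, a cell surface glycoprotein, had 7.96 and 7.61 in clone 5, 7.77 to 8.24 in clones 1 and 6 and 4.49 and 4.01 in clone 2, and its difference from the 3 clones was 1.00. Dim rows led the rest: the crystallin gene Crygc had 4.45 and 3.57 against 1.72 to 3.13, and the cardiac myosin gene Myl2 3.04 and 2.92 against 1.58 to 2.29.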
